A study of Mus musculus with 18 samples.

Results

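The receptors described here take up IL-18, IL-33 and the cytokines whose receptors contain or resemble the common gamma chain. The 9 genes Il18r1, Il18rap, Il1rl1, Il4ra, Il7r, Il2ra, Il2rb, Il2rg and Crlf2 were chosen by name, and each was followed over all 6 groups of arrays through the probe that the platform annotation assigns to its symbol. Of the 9 genes, 7 were measured, out of 19084 genes named on the array. Il1rl1, the IL-33 receptor, and Il2rg, the common gamma chain, were not analysed here. The 7 genes had 8 probes, because Il18r1 had a second one, and the brighter of these stood for the gene.

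IL-18 and IL-33 belong to the IL-1 family and signal through receptor pairs that carry a Toll/IL-1 receptor domain inside the cell and pass the signal on through MyD88 and IRAK kinases. The IL-2, IL-4, IL-7 and thymic stromal lymphopoietin (TSLP) receptors have no such domain and signal through Janus kinases and STAT proteins. Basophils and mast cells, both effector cells of allergy, respond to IL-18, IL-33 and TSLP with cytokine release.

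RNA was measured on 18 single-dye microarrays, 3 for each group, and the study compared basophils with mast cells and basophils with and without Cebpa, a transcription factor of myeloid cells. All samples came from C57Bl/6 mice. The first group were basophils of the genotype Cebpa f/f RosaYFP/creER, in which both Cebpa alleles are flanked by loxP sites and a tamoxifen-activated Cre recombinase and a fluorescent reporter are present, kept for 5 days in 20 ng/ml IL-3 with 100 nM 4-hydroxytamoxifen (treated floxed). The second were the same cells without the drug (untreated floxed). Basophils of the genotype Cebpa +/+ RosaYFP/creER in the same medium made up a group with the drug (treated wild type) and a group without it (untreated wild type). All 4 of these groups carried the recombinase and the reporter. Fresh basophils were isolated from the marrow of mice given IL-3 complexed with its antibody 3 days earlier. Mast cells were grown from bone marrow for 4 weeks in 20 ng/ml IL-3. Fresh basophils and mast cells thus differ in culture as well as in cell type, and the labels do not say whether the 3 arrays of a group came from separate mice or cultures, so the p-values measure the spread between arrays, which may be technical.

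The targeted gene went with the labels. Cebpa had normalized intensities of 69.1, 69.4 and 57.8 in treated floxed and 1055, 935 and 959 in untreated floxed cells, against 2973, 2822 and 2539 in treated wild type and 2280.2, 2602 and 2226 in untreated wild type cells. Its level was thus already lower in floxed cells that had not received the drug, with a difference of -1.25 ± 0.11 on the log2 scale (SE, limma adjusted p = 3.84e-07). Whether its probe lies in the deleted part was not tested. Cebpa stood at 2232, 2393 and 2105 in fresh basophils and at 56.8, 63.8 and 45.7 in mast cells. Median intensity per array ran from 24 to 42 and the share of probes over the background limit of 30 from 47.3% to 54.8%.

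Promoter sequences are shown for Il7r, Il18r1 and Il18rap, because these were the 3 receptors that were lower in treated floxed than in treated wild type cells. They were taken from RefSeq (GRCm38.p6), span 250 bases before to 50 bases after a start site, and are written in the direction of the gene. Of the 9 receptors 8 had such a sequence, with 11 promoters in all. Capitals mark matches on either strand to TTGCNNAA (the core bound by C/EBP proteins), TTCNNNGAA (read by STAT proteins), AGATAA (read by factors of the GATA family), CACGTG (an E-box of the kind bound by MITF) or to a related E-box, CATGTG. The C/EBP letters occur in 10.8% of 32851 promoters of this length, the STAT letters in 8.3%, the GATA letters in 11.2%, the MITF letters in 7.15% and the other E-box in 14.2%.
Il7r, chr15:9529827-9530126, minus strand: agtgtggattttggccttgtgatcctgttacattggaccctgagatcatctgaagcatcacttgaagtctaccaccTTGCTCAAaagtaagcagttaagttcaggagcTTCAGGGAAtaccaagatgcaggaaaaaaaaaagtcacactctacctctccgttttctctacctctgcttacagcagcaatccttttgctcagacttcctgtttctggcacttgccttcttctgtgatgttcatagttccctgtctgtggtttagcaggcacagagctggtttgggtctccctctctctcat
Il18r1, chr1:40465756-40466055, plus strand: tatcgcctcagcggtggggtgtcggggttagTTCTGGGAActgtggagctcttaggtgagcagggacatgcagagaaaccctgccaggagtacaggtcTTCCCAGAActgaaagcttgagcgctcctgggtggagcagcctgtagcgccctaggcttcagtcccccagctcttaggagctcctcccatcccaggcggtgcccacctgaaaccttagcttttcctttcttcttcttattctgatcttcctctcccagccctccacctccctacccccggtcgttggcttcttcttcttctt
Il18rap, chr1:40515112-40515411, plus strand: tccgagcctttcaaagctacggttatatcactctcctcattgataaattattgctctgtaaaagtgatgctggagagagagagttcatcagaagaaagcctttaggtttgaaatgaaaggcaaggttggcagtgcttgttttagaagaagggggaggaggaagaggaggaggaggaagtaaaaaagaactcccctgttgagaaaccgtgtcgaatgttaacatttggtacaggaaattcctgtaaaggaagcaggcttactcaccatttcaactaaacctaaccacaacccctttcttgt
The Il7r promoter held 1 match to the C/EBP letters, whose first base lay at position -174 from the start site, and 1 to the STAT letters at position -142. The third of 3 Il18r1 start sites, shown above, had 2 matches to the STAT letters, at positions -219 and -152. The first held CATGTG and the second none. The Il18rap promoter had no match to any of the letters searched. Il1rl1 had the C/EBP letters at position -34 and the GATA letters at position -217 of its first start site, and the GATA letters at position -103 of its second, and Il4ra, Il2ra, Il2rg and Crlf2 had no match. A match describes the letters in a window and is not a measurement of binding.

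Fresh basophils had more Il18r1, Il18rap and Il7r RNA and less Il4ra, Il2ra and Crlf2 RNA than mast cells. With Il2rb the exception, 6 of the 7 measured receptors passed the test (limma, all 18 arrays, Benjamini-Hochberg adjustment over 26423 probes, threshold 0.05), 3 of them higher and 3 lower. Of all probes 40.6% passed it, 18.3% higher and 22.3% lower. With 3 receptors on either side, their median log2 fold change was that of Il2rb, -0.27, beside -0.04 for all probes.

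**Figure D1:**
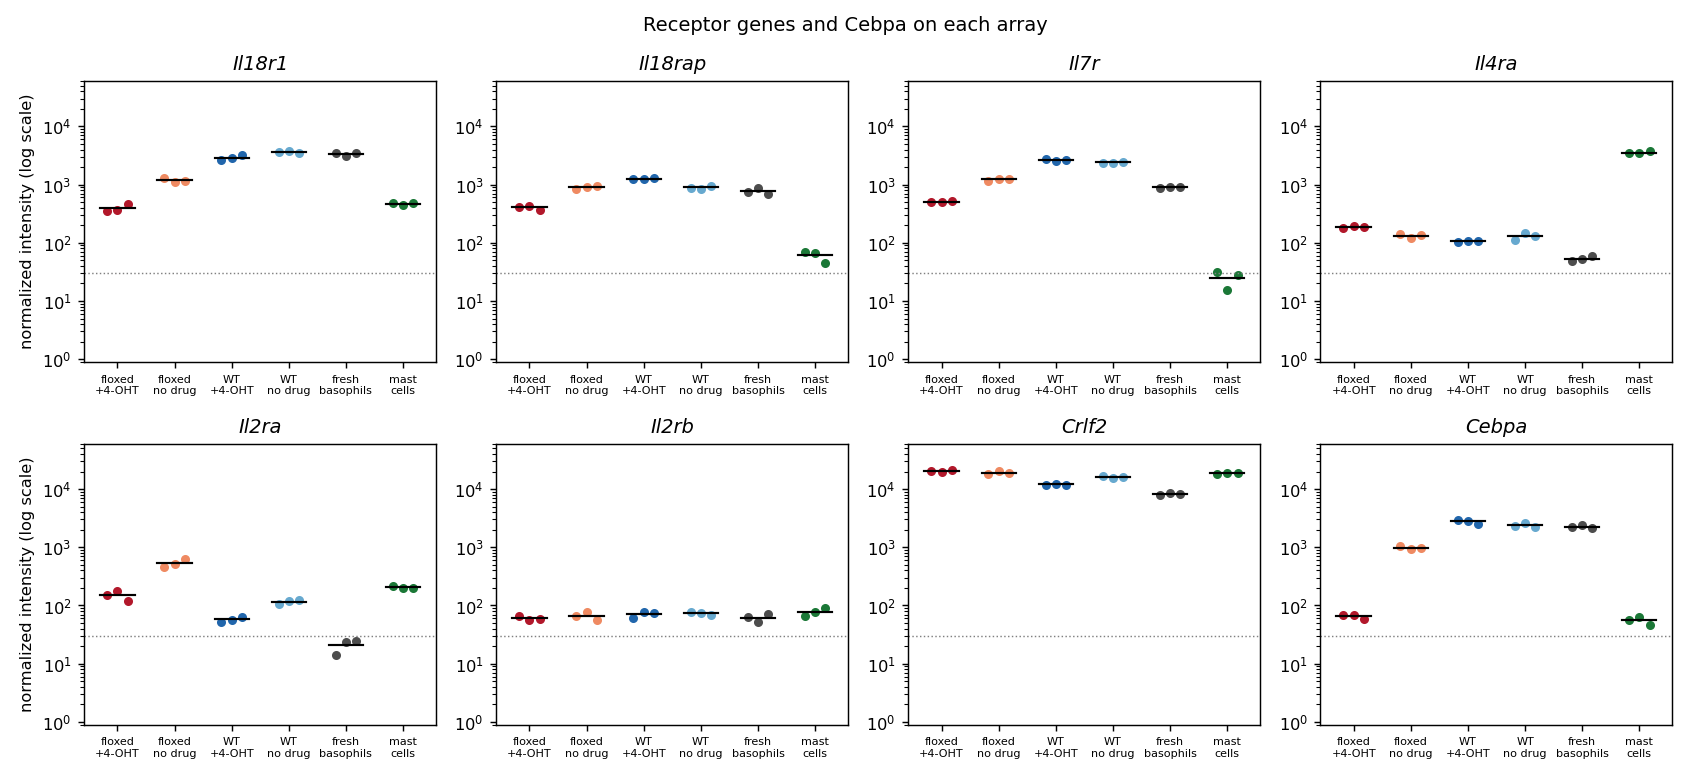
Normalized intensity of each measured receptor on a log axis, by group, with a point for each array, a bar at the mean and a dotted line at the background limit of 30. Il18r1, Il18rap and Il7r are lower in treated floxed than in treated wild type cells, Il4ra, Il2ra and Crlf2 are higher, and Il2rb lies between 52.1 and 89.1 in every group.

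Il18r1, the chain that binds IL-18, had normalized intensities of 3536, 3136 and 3519.8 in fresh basophils, against 478, 453 and 482 in mast cells. Its level was 2.81 ± 0.10 log2 units higher in fresh basophils (SE, limma adjusted p = 4.32e-13), and the groups did not overlap. The second Il18r1 probe, with 825, 762 and 681 in fresh basophils and 49.4, 54.3 and 48.1 in mast cells, ran the same way. Il18rap, the accessory chain needed for IL-18 signalling, had 753, 859.7 and 701 in fresh basophils, against 69.3, 67.9 and 45.7 in mast cells. The difference of 3.36 ± 0.12 log2 units (adjusted p = 1.88e-13) again separated every array of the groups. Both chains of the IL-18 receptor were thus several-fold higher in basophils, and neither was at background in mast cells.

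Il7r, the IL-7 receptor alpha chain, which also pairs with Crlf2 to form the TSLP receptor, had 886, 897 and 909 in fresh basophils. In mast cells it had 31.2, 15.7 and 28.4, with deposited intensities under 30 on each array, so only a bound can be given: Il7r was at least 29.5-fold higher in fresh basophils (adjusted p = 3.00e-15). Crlf2, the TSLP-binding chain, went the other way. It had 7908, 8491 and 8325 in fresh basophils, against 18402, 19146 and 18528 in mast cells, a difference of -1.18 ± 0.07 log2 units (adjusted p = 3.49e-10). Of the TSLP receptor's chains, mast cells thus had RNA for Crlf2 with Il7r at background, while fresh basophils had both well above background.

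Il4ra, which binds IL-4 and serves in both IL-4 and IL-13 receptors, was lower in fresh basophils. Its intensities were 48.7, 52.1 and 58.3 in fresh basophils, against 3446, 3432 and 3724 in mast cells, a 51.5-fold lower level in basophils (log2 difference -5.69 ± 0.09, adjusted p = 7.65e-18). Il2ra, the high-affinity IL-2 receptor alpha chain, was at background in fresh basophils with 14.2, 23.4 and 24.8, against 219.9, 202 and 199 in mast cells. It was at least 6.90-fold lower in fresh basophils (adjusted p = 9.06e-11). Il2rb, the beta chain shared by the IL-2 and IL-15 receptors, had 62.8, 52.1 and 70.3 in fresh basophils and 66.6, 78.1 and 89.1 in mast cells. The Il2rb groups overlapped and the difference, -0.27 with a 95% interval of -0.53 to -0.01, did not pass (limma adjusted p = 0.0897). Without mast cell replicate 1 the Il2rb difference was -0.36 and passed (adjusted p = 0.0396).

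Markers of other cells are given here because bulk RNA does not tell fewer cells of a type from less RNA per cell. Of 8 neutrophil markers 7 were higher in fresh basophils, where their summed intensity was 84191 to 87006, against 550 to 596 in mast cells. All 8 monocyte and macrophage markers were higher too, with sums of 30544 to 31862 against 533 to 578. Of 13 T and NK cell markers 3 were higher and 3 lower, with sums of 4028 to 4459 in fresh basophils, most of it Nkg7, against 292 to 319 in mast cells. All 5 eosinophil markers were higher, with sums of 45855 to 47452 against 345 to 404. Of 8 B cell markers 4 were higher and 0 lower, with sums of 1576 to 1744 against 436 to 491, and the other 4, Ms4a1, Pax5, Ebf1 and Rag1, were at background in all 6 groups. Of 6 markers of type 2 innate lymphoid cells 2 were higher and 2 lower, with sums of 3372 to 3568 against 412 to 499.6, and Il5 among them was at background in all 6 groups. Of 7 basophil markers 5 were higher and 1 lower, with sums of 122262 to 126765 against 52645 to 55648 in mast cells. Of 9 mast cell markers 0 were higher and 7 lower, with sums of 78922 to 81771 against 194572 to 198283. Their median log2 difference was -5.81, with Mcpt2 and Tph1 at background in fresh basophils and Tpsab1 in both groups. Fcer1a is in both lists, so it counts in the basophil and the mast cell sums alike, here and below. The part of any of these cells in the receptor differences was not tested.

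**Figure D2:**
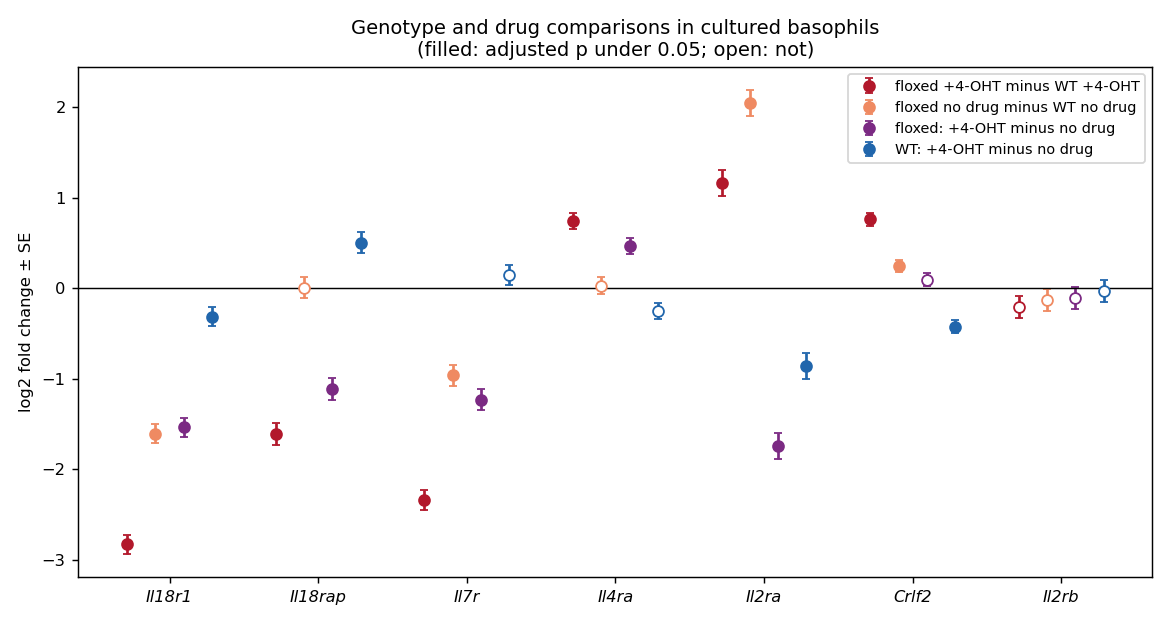
Log2 fold change of each measured receptor in the 4 genotype and drug comparisons of cultured basophils, with the SE as error bar and filled points where the adjusted p was under 0.05. Between treated floxed and treated wild type cells Il18r1, Il7r and Il18rap lie at -2.83, -2.34 and -1.61, and Il2ra, Crlf2 and Il4ra at 1.16, 0.76 and 0.74.

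Treated floxed cells had less Il18r1, Il18rap and Il7r RNA and more Il4ra, Il2ra and Crlf2 RNA than treated wild type cells. For Il2ra and Crlf2 this was not a rise with the drug in floxed cells. Between treated and untreated floxed cells Il2ra was at -1.75 (limma adjusted p = 1.32e-07) and Crlf2 at 0.09 (adjusted p = 0.445). Between treated floxed and treated wild type basophils 6 of the 7 measured receptors passed the test, 3 lower and 3 higher. Of all probes 30.7% passed it, 14.9% lower and 15.9% higher. With 3 receptors on either side, their median log2 fold change was that of Il2rb, -0.21, which did not pass, beside 0.00 for all probes.

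Il18r1 had 357, 371 and 462 in treated floxed cells, against 2646, 2903 and 3176 in treated wild type cells. The difference was -2.83 ± 0.10 log2 units (adjusted p = 3.17e-12), and no floxed array reached a wild type one. The second Il18r1 probe had 59.6, 59.2 and 55.7 in treated floxed and 431, 400.0 and 385 in treated wild type cells. Il18rap had 414, 430.4 and 369 in treated floxed cells, against 1249, 1251 and 1302 in treated wild type cells, a difference of -1.61 ± 0.12 (adjusted p = 1.40e-08).

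Il7r had 500.1, 509 and 526 in treated floxed cells, against 2777, 2508 and 2683 in treated wild type cells. It was lower by 2.34 ± 0.11 on the log2 scale (adjusted p = 1.10e-10), with arrays of a group close together. Crlf2, its partner in the TSLP receptor, had 20786, 19646 and 20978 in treated floxed cells, against 11956, 12279.5 and 11909 in treated wild type cells. Crlf2 was higher by 0.76 ± 0.07 (adjusted p = 2.96e-07). The chains of the TSLP receptor thus differed in opposite directions between these groups. Between treated and untreated floxed cells the Crlf2 difference, 0.09, did not pass (adjusted p = 0.445).

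Il4ra had 179.8, 197 and 187 in treated floxed cells, against 105, 107 and 106 in treated wild type cells, a difference of 0.74 ± 0.09 (adjusted p = 6.00e-06). This was a small step beside the mast cell level: treated floxed cells were at -4.12 ± 0.09 log2 units against mast cells (adjusted p = 1.40e-15). Il2ra had 149.6, 179.8 and 119 in treated floxed cells, against 51.7, 56.3 and 64.5 in treated wild type cells, a difference of 1.16 ± 0.14 (adjusted p = 7.03e-06). Il2rb had 65.4, 56.3 and 57.8 in treated floxed cells and 62, 78.3 and 75.5 in treated wild type cells, and the difference of -0.21 ± 0.12 did not pass (adjusted p = 0.232). Il2rb passed, at -0.36, where arrays were scaled on probes above background (adjusted p = 0.0369).

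Each of the 6 receptors that passed both between treated floxed and treated wild type cells and between fresh basophils and mast cells had opposite signs in them. These comparisons share no arrays. Among all probes that passed in both, 3561 of 5363 (66.4%) had opposite signs.

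**Figure D3:**
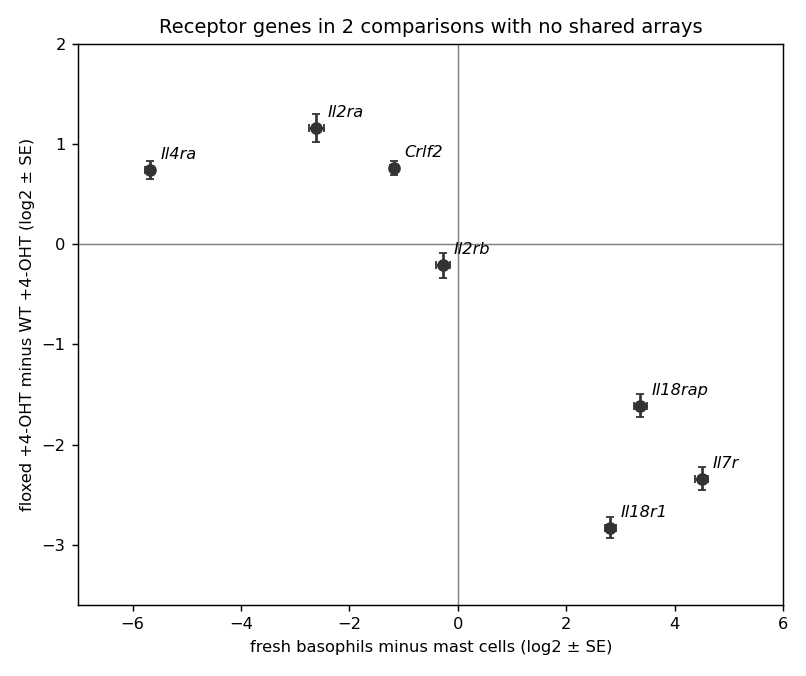
Log2 fold change of treated floxed over treated wild type cells (vertical axis) and of fresh basophils over mast cells (horizontal axis), with a point for each measured receptor and the SE as error bars. Il7r was at background in mast cells and Il2ra in fresh basophils, so their horizontal positions are fitted values and not measured folds. Il18r1, Il18rap and Il7r lie at lower right, Il4ra, Il2ra and Crlf2 at upper left, and Il2rb near the origin.

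Treated floxed basophils were also set directly against mast cells. The test was passed by 4 of the 7 measured receptors, 2 higher and 2 lower. Of all probes 35.4% passed it, 15.7% higher and 19.6% lower. Il18r1 differed by -0.25 ± 0.10 log2 units (adjusted p = 0.0751), and its second probe by 0.16 (adjusted p = 0.172). Without treated floxed replicate 3 the Il18r1 difference was -0.36 and passed (adjusted p = 0.0110). Crlf2 differed by 0.13, with a 95% interval of -0.02 to 0.28 (adjusted p = 0.178). Il18rap stayed 2.46 log2 units higher in treated floxed cells (adjusted p = 2.47e-11), and Il7r was at least 16.8-fold higher there (adjusted p = 9.55e-14). Il2ra was at -0.45 ± 0.14 (adjusted p = 0.0213), but without mast cell replicate 1 (-0.40, adjusted p = 0.0727) or treated floxed replicate 3 (-0.31, adjusted p = 0.124), the test was not passed. Nor was it under median scaling (-0.43, adjusted p = 0.0754), where arrays were scaled on the brighter probes, those over background (-0.37, adjusted p = 0.0628), or where they were not normalized to each other (-0.17, adjusted p = 0.494). Il2rb, at -0.30 (adjusted p = 0.0664), passed without mast cell replicate 1 (-0.39, adjusted p = 0.0310). Beside these, all 8 monocyte and macrophage markers, 3 of 5 eosinophil and 3 of 8 neutrophil markers were higher in treated floxed cells than in mast cells, 1 neutrophil marker was lower, and 5 of 9 mast cell markers were lower. Of 7 basophil markers 5 were higher and 0 lower.

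Granulocyte and mast cell markers moved with genotype beside these receptors. Between treated floxed and treated wild type cells 7 of 8 neutrophil markers were lower in the floxed cells, with summed intensities of 1836 to 2050.2 against 11482 to 11893. All 8 monocyte and macrophage markers were lower, with sums of 7079 to 7326 against 14954 to 15613. Eosinophil markers went both ways, 3 of 5 higher and 2 lower, with sums of 10766 to 11071 against 3428 to 3697, and 6 of 9 mast cell markers were higher, with sums of 145484 to 150897 against 95511 to 97906. Basophil markers, 1 of 7 higher and 2 lower, summed to 115981 to 124279 in treated floxed and 131760.4 to 136496 in treated wild type cells. T and NK cell markers summed to 1813 to 1920.1 against 1700.0 to 1814, with 2 of 13 higher and 1 lower, and B cell markers to 570.1 to 610.1 against 1080.1 to 1126, with 1 of 8 higher and 3 lower. Markers of type 2 innate lymphoid cells summed to 4218 to 4803 against 3599.8 to 4209, with 2 of 6 higher and 2 lower. The part of any of these cells in the receptor differences was not tested.

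The floxed cells that had received no drug already differed from untreated wild type cells in some of the receptors. Of the 7 measured, 4 passed the test, 2 higher and 2 lower. Of all probes 15.8% passed it, 8.54% higher and 7.27% lower. Il18r1 had 1277, 1098 and 1154 in untreated floxed cells, against 3559, 3804 and 3474 in untreated wild type cells, a difference of -1.61 ± 0.10 (adjusted p = 1.16e-08). Il7r had 1137, 1265 and 1269 in untreated floxed cells, against 2371, 2373 and 2444 in untreated wild type cells, a difference of -0.96 ± 0.11 (adjusted p = 1.34e-05). The arrays of the groups did not overlap for either gene.

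Il18rap had 829.6, 897 and 957 in untreated floxed cells and 886, 856 and 930.5 in untreated wild type cells, with overlapping arrays and an interval of -0.24 to 0.25 log2 units for the difference (adjusted p = 0.989). Il4ra had 141, 122 and 134 in untreated floxed and 113, 145 and 130.5 in untreated wild type cells, with an interval of -0.16 to 0.22 (adjusted p = 0.898). Neither gene passed, and the arrays of the groups overlapped for both.

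Il2ra was highest of all 6 groups in untreated floxed cells. It had 466, 523 and 623 there, against 108, 119 and 124 in untreated wild type cells, a difference of 2.05 ± 0.14 log2 units (adjusted p = 2.81e-08). Crlf2 had 18402, 20392 and 18809.7 in untreated floxed cells and 16646, 15637 and 16292 in untreated wild type cells. Its difference of 0.24 ± 0.07 passed narrowly (adjusted p = 0.0257) and did not pass without untreated wild type replicate 2 (adjusted p = 0.101) or 3 (0.0637), or without untreated floxed replicate 2 (0.123) or 3 (0.0577), or in a fit on the compared groups alone (0.109). Markers of other cells moved in this comparison too: 5 of 8 neutrophil markers were lower, with sums of 5486 to 6182 against 12207 to 13986, and 7 of 8 monocyte and macrophage markers were lower and 1 higher, with sums of 9178 to 10519 against 12444 to 14133. Of 5 eosinophil markers 1 was higher and 2 lower, with sums of 7404 to 8436 in untreated floxed against 4326 to 4459 in untreated wild type cells. Of 13 T and NK cell markers 0 were higher and 1 lower, with sums of 858 to 902 against 3886 to 4164. Of 6 markers of type 2 innate lymphoid cells 1 was higher and 2 lower, with sums of 5380 to 5520 against 1980 to 2265. Of 8 B cell markers 3 were lower, with sums of 507 to 530 against 705 to 778, and of 9 mast cell markers 1 was higher and 4 lower, with sums of 93047 to 94413 against 89182 to 94496. Of 7 basophil markers 2 were higher and 0 lower, with sums of 130632 to 134958 against 134953.5 to 143355. The part of these cells in the receptor differences was not tested.

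**Figure D4:**
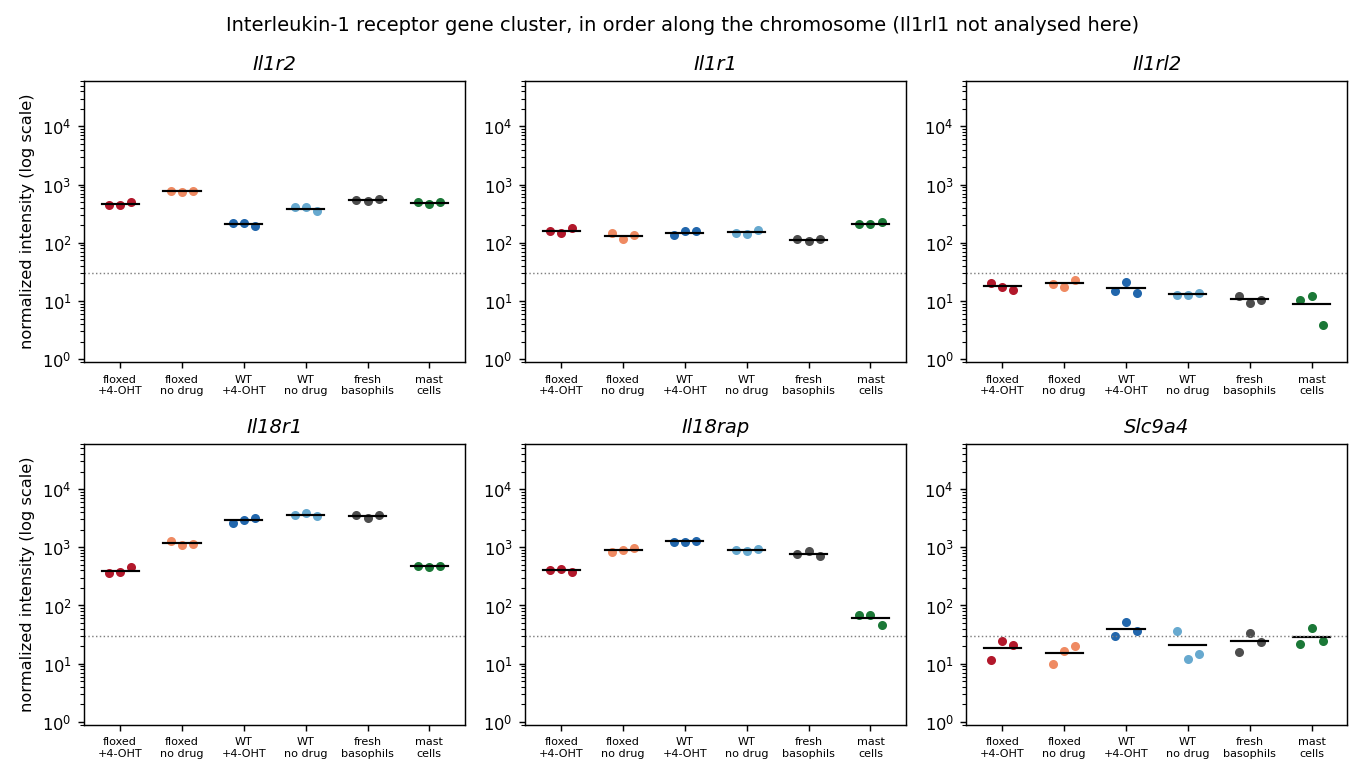
Normalized intensity on a log axis, by group, of the IL-18 receptor genes and of 4 neighbours on chromosome 1, with a point for each array, a bar at the mean and a dotted line at the background limit of 30 (4-OHT, 4-hydroxytamoxifen). Among the cultured groups Il18r1 lies lowest in treated floxed cells, next lowest in untreated floxed cells and higher in wild type cells, Il18rap is lowest in treated floxed cells, and Il1r2 is higher in floxed than in wild type cells of the same treatment.

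Adding the drug to floxed cells lowered 4 receptors and raised 1, so 5 of the 7 measured passed the test. Of all probes 19.6% passed it, 9.67% lower and 9.92% higher. Il18r1 fell by 1.54 (adjusted p = 1.32e-08), Il7r fell by 1.23 (adjusted p = 5.88e-07) and Il18rap fell by 1.11 log2 units (adjusted p = 2.27e-06). Il4ra rose by 0.46 (adjusted p = 0.00118). Il2ra fell by 1.75 log2 units (adjusted p = 1.32e-07), so that treated floxed cells lay between untreated floxed and treated wild type cells. Crlf2 differed by 0.09 ± 0.07 (adjusted p = 0.445), and by -0.23 (adjusted p = 0.0306) where arrays were scaled on probes above background. Beside these changes 7 of 8 neutrophil markers were lower in treated floxed cells, with sums of 1836 to 2050.2 against 5486 to 6182 in untreated floxed cells, and 7 of 9 mast cell markers were higher, with sums of 145484 to 150897 against 93047 to 94413. Of 8 monocyte and macrophage markers 4 were higher and 2 lower, with sums of 7079 to 7326 against 9178 to 10519, and of 5 eosinophil markers 1 was higher and 1 lower, with sums of 10766 to 11071 against 7404 to 8436. Basophil markers, 4 of 7 lower and 1 higher, summed to 115981 to 124279 against 130632 to 134958. Of 13 T and NK cell markers 2 were higher and 2 lower, with sums of 1813 to 1920.1 against 858 to 902, and of 6 markers of type 2 innate lymphoid cells 1 was higher and 1 lower, with sums of 4218 to 4803 against 5380 to 5520. Their part was not tested.

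Receptor RNA also differed with the drug in wild type cells. These cells carry the drug-activated Cre recombinase, so effects of the drug and of the recombinase cannot be told apart here. Of the 7 measured receptors 4 passed the test between treated and untreated wild type cells, 3 lower and 1 higher. Of all probes 21.3% passed it, 10.1% lower and 11.2% higher. Il2ra fell by 0.86 ± 0.14 log2 units (adjusted p = 3.36e-04). All treated arrays, at 51.7 to 64.5, lay below the untreated ones, at 108 to 124. Crlf2 fell by 0.43 ± 0.07 (adjusted p = 3.48e-04), and the test was not passed under median scaling (adjusted p = 0.0619). Il18rap rose by 0.50 ± 0.12 (adjusted p = 0.00487), but by 0.26 (adjusted p = 0.219) without normalization between arrays. Il18r1 was lower by a margin that did not hold: its difference of -0.31 (adjusted p = 0.0395) missed the threshold without any 1 of treated replicate 1 (adjusted p = 0.163) or 2 (0.0886) or untreated replicate 1 (0.0762), 2 (0.133) or 3 (0.0615), or under median scaling (0.215) or in a fit of the cultured basophils alone (0.0708), and the second probe did not pass (-0.20, adjusted p = 0.110). Il4ra, at -0.25 (adjusted p = 0.0580), passed without untreated replicate 1 (-0.33, adjusted p = 0.0204). Il7r differed by 0.15 (adjusted p = 0.437). Of 13 T and NK cell markers 1 was higher and 2 lower here, with sums of 1700.0 to 1814 in treated against 3886 to 4164 in untreated wild type cells. Of 6 markers of type 2 innate lymphoid cells 2 were higher and 0 lower, with sums of 3599.8 to 4209 against 1980 to 2265. Neutrophil markers, 3 of 8 higher and 3 lower, summed to 11482 to 11893 against 12207 to 13986, and mast cell markers, 4 of 9 higher and 2 lower, to 95511 to 97906 against 89182 to 94496. Basophil markers, 0 of 7 higher and 1 lower, summed to 131760.4 to 136496 against 134953.5 to 143355. Their part was not tested.

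The drug effect in floxed cells minus that in wild type cells was tested for each receptor, and 6 of the 7 passed, 4 with a lower and 2 with a higher effect in floxed cells. Of all probes 12.6% passed it, 6.46% lower and 6.17% higher. The difference of drug effects was -1.62 ± 0.16 log2 units for Il18rap (adjusted p = 4.90e-06). It was -1.38 ± 0.16 for Il7r (adjusted p = 2.11e-05), -1.22 ± 0.15 for Il18r1 (adjusted p = 2.60e-05) and -0.89 ± 0.20 for Il2ra (adjusted p = 0.00690). For Il4ra it was 0.72 ± 0.13 (adjusted p = 0.00111) and for Crlf2 0.52 ± 0.10 (adjusted p = 0.00221). Under median scaling the Il4ra difference, at 0.50 (adjusted p = 0.171), and the Crlf2 difference, at 0.10 (adjusted p = 0.849), did not pass, and the Crlf2 difference also did not pass with scaling on probes over background (0.31, adjusted p = 0.0562). Il2rb was at -0.08 (adjusted p = 0.855). In the same test 5 of 8 neutrophil markers had a lower and 7 of 9 mast cell markers a higher drug effect in floxed cells. Of 7 basophil markers 2 had a lower and 1 a higher effect there. The part of these cells was not tested.

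Between cultured and fresh wild type basophils 4 of the 7 receptors were higher in culture and 0 passed as lower. Of all probes 34.9% passed the test, 17.3% higher and 17.6% lower. These groups differ in the recombinase and reporter alleles as well as in culture. Il7r was 1.40 ± 0.11 log2 units higher in untreated wild type cells (adjusted p = 2.86e-08), Il4ra 1.07 ± 0.09 (adjusted p = 4.13e-08) and Crlf2 0.97 ± 0.07 (adjusted p = 6.95e-09). Il2ra, at background in fresh basophils, was at least 3.89-fold higher (adjusted p = 1.25e-08). Il18rap differed by 0.21 (adjusted p = 0.202). The Il18r1 probes disagreed: the brighter differed by 0.09 (adjusted p = 0.580) and the dimmer by -0.67 ± 0.08 (adjusted p = 4.90e-06), with 444, 469 and 489.5 in untreated wild type cells against 825, 762 and 681 in fresh basophils. Of 8 neutrophil markers 6 were lower and 1 higher in untreated wild type cells, with sums of 12207 to 13986 against 84191 to 87006 in fresh basophils. Monocyte and macrophage markers, 5 of 8 lower and 3 higher, summed to 12444 to 14133 against 30544 to 31862, and eosinophil markers, 4 of 5 lower, to 4326 to 4459 against 45855 to 47452. Mast cell markers, 6 of 9 higher and 1 lower, summed to 89182 to 94496 against 78922 to 81771. Basophil markers, 4 of 7 lower and 2 higher, summed to 134953.5 to 143355 against 122262 to 126765. The part of these cells in the receptor differences was not tested.

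Against mast cells, untreated wild type cells had the same direction as fresh basophils in the 6 receptors that passed there, 3 higher and 3 lower. Of all probes 39.2% passed it, 16.9% higher and 22.3% lower. Beside them 7 of 8 neutrophil, all 8 monocyte and macrophage and 4 of 5 eosinophil markers were higher and 7 of 9 mast cell markers lower. Of 7 basophil markers 6 were higher and 1 lower. The Crlf2 difference, -0.21 (adjusted p = 0.0280), was not passed without mast cell replicate 2 (adjusted p = 0.0852) or untreated wild type replicate 2 (0.101) or 3 (0.0574), nor under median scaling (0.0619), with scaling on probes above background (0.0971) or in a fit on the compared groups alone (0.114), and without normalization between arrays it had the other sign (a log2 difference of 0.0698).

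Across the 6 groups the order of levels differed from receptor to receptor. Il18r1 stood highest in untreated wild type cells, fresh basophils and treated wild type cells, with no neighbours in that order passing the test of their difference, then in untreated floxed cells, and lowest in mast cells and treated floxed cells, which again did not pass it. Il18rap was highest in treated wild type cells, followed by untreated floxed, untreated wild type and fresh basophils with no neighbours among these 3 passing, then treated floxed cells and mast cells. Il7r was highest in treated and untreated wild type cells, then lower at each step to untreated floxed cells, fresh basophils, treated floxed cells and mast cells. Il4ra was highest in mast cells, Il2ra in untreated floxed cells and Crlf2 in treated floxed cells, where the difference from untreated floxed cells did not pass. For Il2rb no difference between any pair of groups passed.

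Over the 18 arrays, Il18rap and Il7r had the closest profiles among the receptors, with Pearson's r of 0.979 between log2 intensities, and Il2ra and Crlf2 had 0.863. Il18r1 and Il18rap had 0.728, and Il18rap and Il4ra had -0.940. These coefficients describe arrays that fall into 6 groups and share a normalization, and carry no test. The search covered 4932 genes with an intensity over 100 on at least 1 array and group means spanning at least 1 log2 unit. Among them the genes most like Il18r1 were Cst3 (0.988), Tmem71 (0.986) and Trim30b (0.984). Those most like Il18rap were Itgb2 (0.989), Vsir (0.989) and Hk3 (0.987), and those most like Il7r were Gabbr1 (0.993), Csf1 (0.993) and Plaur (0.991). The closest to Il4ra were Tmtc2 (0.993), Mecom (0.991) and Gpr176 (0.991), to Il2ra Prune2 (0.944), Rab3a (0.942) and Tigd2 (0.936), and to Crlf2 Aldoc (0.981), Ltc4s (0.972) and Spink2 (0.970).

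Il18r1 and Il18rap lie side by side on chromosome 1, in the order Il1r2, Il1r1, Il1rl2, Il1rl1, Il18r1, Il18rap, Slc9a4 and Slc9a2. Il1r2, the decoy receptor for IL-1, had 453, 443 and 503 in treated floxed cells, against 219.03, 215 and 197 in treated wild type cells, a difference of 1.09 ± 0.08 (adjusted p = 3.10e-08). It was also higher in untreated floxed than in untreated wild type cells, by 0.96 (adjusted p = 4.70e-07). Il1r1, the signalling IL-1 receptor, differed by 0.10 between treated floxed and treated wild type cells (adjusted p = 0.508) and was at -0.82 ± 0.10 in fresh basophils against mast cells (adjusted p = 3.27e-06). Il1rl2, the IL-36 receptor, was at background in every group. Il21r, next to Il4ra, was at background in every group too.

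The list of partner receptors held chains that these receptors pair with and related receptors. Of its 13 genes, all measured, 3 were higher and 6 lower in fresh basophils than in mast cells, with a median of 0.12, and 2 were higher and 3 lower in treated floxed than in treated wild type cells, with a median of -0.05. These 5 of 13 in the genotype comparison lie near the 30.7% of all probes that passed it, and 40.6% of all probes passed between the cell types. Il1rap, the co-receptor of the IL-33 receptor, was higher in fresh basophils than in mast cells by 0.82 ± 0.11 (adjusted p = 1.47e-05), and differed by -0.24 between treated floxed and treated wild type cells (adjusted p = 0.146). Il13ra1, which pairs with Il4ra to bind IL-13, was 1.11 ± 0.18 higher in fresh basophils (adjusted p = 5.56e-05). Il9r, which signals with the common gamma chain, had 3.72, 5.67 and 2.94 in fresh basophils, against 168, 148 and 159.6 in mast cells, and was at least 5.27-fold lower (adjusted p = 1.35e-12). It had 88.7, 76.7 and 87.6 in treated floxed cells, against 10.2, 11.8 and 23.2 in treated wild type cells, at least 2.81-fold higher (adjusted p = 1.55e-08).

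**Figure D5:**
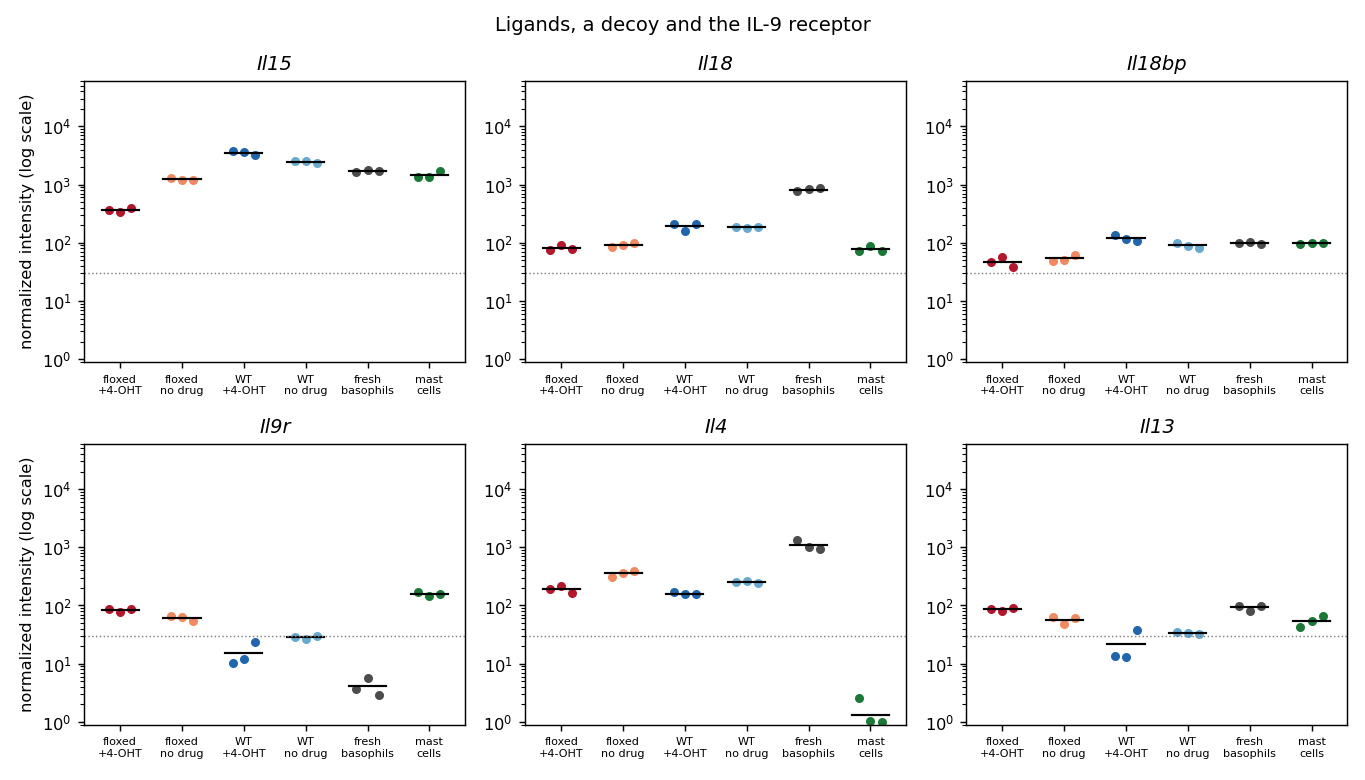
Normalized intensity on a log axis, by group, of the ligands Il15, Il18, Il4 and Il13, the decoy Il18bp and the receptor Il9r. Each array has a point, with a bar at the mean and a dotted line at the background limit of 30. Il15 lies at 332 to 395 in treated floxed and at 3158 to 3781 in treated wild type cells, and Il9r is at background in treated wild type cells and fresh basophils.

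Among the ligands and decoys 11 of 12 were measured, with 2 higher and 3 lower in treated floxed than in treated wild type cells, and 3 higher and 0 lower in fresh basophils than in mast cells, beside the 30.7% and 40.6% of all probes that passed these tests. Il15, a cytokine that uses Il2rb, had 371, 332 and 395 in treated floxed and 1285, 1196 and 1203 in untreated floxed cells, against 3781, 3581 and 3158 in treated wild type and 2499.9, 2544 and 2379.9 in untreated wild type cells. The difference between treated floxed and treated wild type cells was -3.20 ± 0.10 (adjusted p = 6.07e-13), and the drug effects differed by -2.20 ± 0.14 (adjusted p = 2.61e-08). The arrays of treated floxed cells lay below those of every other group.

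Il18, the ligand of the IL-18 receptor, had 775, 823 and 859 in fresh basophils, against 72.1, 87.6 and 72.7 in mast cells, a difference of 3.16 ± 0.10 (adjusted p = 8.64e-14). It had 75.9, 92.5 and 78.8 in treated floxed cells, against 208, 162 and 208 in treated wild type cells, a difference of -1.08 ± 0.10 (adjusted p = 4.26e-07). Il18bp, which binds IL-18 and keeps it from the receptor, was also lower in treated floxed cells, with a difference of -1.11 ± 0.11 (adjusted p = 6.22e-07). Receptor, ligand and binding protein of the IL-18 system were thus all lower in treated floxed than in treated wild type cells. Il4, a ligand of Il4ra, was at background in mast cells and at least 36.4-fold higher in fresh basophils (adjusted p = 2.53e-16). Il13, with 85.4, 80.3 and 92.3 in treated floxed cells against 13.6, 12.9 and 38.3 in treated wild type cells, was higher by 1.50 ± 0.19 (adjusted p = 9.77e-06). Il33 and Il21 were at background in every group.

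Signalling genes downstream of these receptors changed in both directions. Of 19 measured genes of Toll/IL-1 receptor signalling (22 listed), 4 were higher and 10 lower in treated floxed than in treated wild type cells, with a median of -0.26, and 8 were higher and 9 lower in fresh basophils than in mast cells. Of 20 measured genes of JAK-STAT signalling (21 listed), 6 were higher and 10 lower in treated floxed cells, with a median of -0.29, and 5 were higher and 8 lower in fresh basophils. Of all probes 30.7% passed between these genotypes and 40.6% between these cell types. Socs2, a feedback inhibitor of cytokine signalling, averaged 16108 ± 321 in treated floxed and 7348 ± 139.5 in treated wild type cells (SD, n = 3 each), a difference of 1.13 ± 0.07 (limma adjusted p = 2.38e-09), and was at -2.55 in fresh basophils against mast cells (adjusted p = 1.00e-14). Pim2, a survival kinase induced by STAT5, was 1.26 higher in treated floxed than in treated wild type cells (adjusted p = 2.03e-05). Irak3, an inhibitor of IRAK signalling, was at -1.06 there (adjusted p = 7.67e-08) and Stat5b, a STAT protein, at -0.98 (adjusted p = 9.64e-07). Stat5b was already lower in untreated floxed than in untreated wild type cells, at -0.52 (adjusted p = 0.00155). It averaged 359 in treated and 335 in untreated floxed cells, against 728 in treated and 488 in untreated wild type cells. In fresh basophils against mast cells, Cish, another STAT5 target, was at -2.15 (adjusted p = 1.42e-11), the survival gene Bcl2 at -1.94 (adjusted p = 1.04e-11) and Tnfaip3, an inhibitor of NF-kB signalling, at 1.98 (adjusted p = 1.86e-10).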

How the data were processed

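The deposited values of the 18 single-dye arrays were treated as linear, background-subtracted probe intensities. Which scanner software, background method and normalization preceded deposit is not given in the sources used. A gene symbol was assigned by the platform annotation to 21876 of 26423 probes. The receptors and the gene lists were chosen with earlier results of these data known.

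Intensities were quantile normalized over all 18 arrays and analysed as log2(intensity + 16), a scale on which changes of dim genes come out too small. A single limma 3.58.1 fit in R 4.3.3 (lmFit, eBayes, two-sided) with 6 group means gave 9 comparisons, adjusted by Benjamini-Hochberg over 26423 probes at a threshold of 0.05. A probe whose deposited intensity stayed under 30 on all arrays of a group counted as at background there. Its fold is a bound against values raised to that limit, taken without the added 16. The number of arrays, 3 per group, limits the precision.

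Where a gene had several probes, the one with the highest mean stood for it. Named beside the receptors were the 3 genes most like each, up to 4 signalling genes per comparison by size of change among those passing, and partners, ligands and neighbours; some of these partners, ligands and neighbours were picked with their values in view. The fits were also run on simulated log2 values with independent noise and changes placed only in brighter probes. That run did not cover changes in dim probes or the normalization. Alternatives were median scaling, fits within the experiment or on the groups compared, an offset of 50, leaving out the dimmest 30% of probes, an intensity trend, probes averaged per gene, the replicate number as a block, a 2-fold limit and each array left out. No between-array normalization and scaling on probes above background were added after seeing the data.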

Additional observations from a re-analysis of the deposited data

Results flagged for a closer look

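For 6 receptors the effect of 4-hydroxytamoxifen in Cebpa f/f basophils differed from its effect in Cebpa +/+ basophils by the interaction term of the limma fit. The drug effect in floxed minus that in wild type cells was -1.22 for Il18r1, -1.62 for Il18rap, -1.38 for Il7r and -0.89 for Il2ra on the log2 scale. It was 0.72 for Il4ra and 0.52 for Crlf2. The drug difference of Il2ra was -1.75 in floxed and -0.86 in wild type cells.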

How the results depend on the processing

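Over 28 alternative settings, 1695 of 1743 receptor values kept their direction and their side of the threshold, 29 no longer passed, 16 newly passed and 3 changed sign with a call on either side. The sign changes were Crlf2 in treated against untreated floxed cells with scaling on probes above background (-0.23), Crlf2 in untreated wild type against mast cells without normalization between arrays (0.0698), and Il18r1 in untreated wild type against fresh basophils with its probes averaged (-0.29). Averaging probes also turned Tslp in fresh basophils against mast cells (0.41) and Bcl2 in untreated wild type against mast cells (0.0075). The cause of these changes was not tested. With a 2-fold limit the count of receptors passing fell to 2 in untreated floxed against untreated wild type cells. It fell to 0 in treated against untreated wild type cells and to 3 for the interaction. The limit also left out Il4ra (0.74) and Crlf2 (0.76) between treated floxed and treated wild type cells. It left out Il4ra (0.46) in treated against untreated floxed cells and Crlf2 (0.97) in untreated wild type against fresh basophils. Against mast cells it left out Il2ra (-0.75) and Crlf2 (-0.21) for untreated wild type and Il2ra (-0.45) for treated floxed cells. Under median scaling the count fell to 2 in treated against untreated wild type cells. Leaving out each array in turn gave 3 to 4 receptors in untreated floxed against untreated wild type and in treated against untreated wild type cells, 6 to 7 in fresh basophils against mast cells, 5 to 6 in untreated wild type against mast cells, and the same count in the other 5 comparisons.

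Median scaling lowered the number of probes passing to 3556, beside 5624, in treated against untreated wild type cells and to 1893, beside 3338, for the interaction. A 2-fold limit lowered it to 3402, beside 10719, in fresh basophils against mast cells, to 1427, beside 8116, between treated floxed and treated wild type cells, to 474, beside 4177, in untreated floxed against untreated wild type cells, to 665, beside 5175, in treated against untreated floxed cells, to 321, beside 5624, in treated against untreated wild type cells and to 704, beside 3338, for the interaction. It lowered it to 2583, beside 9215, in untreated wild type against fresh basophils, to 3352, beside 10369, in untreated wild type against mast cells and to 2207, beside 9343, in treated floxed against mast cells. Without normalization between arrays the median of all probes moved to 0.16, beside -0.04, in fresh basophils against mast cells, to 0.12, beside -0.01, for the interaction and to 0.11, beside -0.04, in untreated wild type against mast cells. Median scaling moved the interaction median to -0.13. The share of passing probes that were higher, without such normalization, was 77.8% (45.1% with quantile normalization) in fresh basophils against mast cells, 62.1% (51.6%) between treated floxed and treated wild type cells, 33.6% (54.0%) in untreated floxed against untreated wild type cells, 22.7% (52.4%) in treated against untreated wild type cells and 78.4% (48.8%) for the interaction. It was 35.6% (49.6%) in untreated wild type against fresh basophils, 66.8% (43.1%) in untreated wild type and 65.4% (44.5%) in treated floxed against mast cells. Under median scaling it was 74.2% in untreated floxed against untreated wild type cells, 35.3% (50.6%) in treated against untreated floxed cells, 68.6% in treated against untreated wild type cells, 24.6% for the interaction and 37.3% in untreated wild type against fresh basophils. Scaling on probes above background gave 41.8% in untreated floxed against untreated wild type cells. With the replicate number as a block the counts of receptors were 6 in fresh basophils against mast cells, 6 between treated floxed and treated wild type cells, 4 in untreated floxed against untreated wild type cells and 6 for the interaction, and no receptor's call changed. Same-numbered arrays had correlations of -0.39 to 0.16, with 9 of 45 over 0.1. With no different-numbered arrays set beside them, these correlations cannot tell whether the numbers pair the samples. Values near the background limit of 30 are the least certain, and for fresh basophils and mast cells, cell type and culture cannot be told apart.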
